A study of Mus musculus with 4 samples.

Results

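The ligands and receptors of the vascular endothelial growth factor (VEGF) and angiopoietin families were followed in nuclei of the mouse heart, by cell class and by library. The 10 genes were picked by symbol among the 25906 genes of the count matrices. The VEGF ligands are Vegfa (ENSMUSG00000023951), Vegfb (ENSMUSG00000024962) and Vegfc (ENSMUSG00000031520). Their receptors are Flt1 (VEGF receptor 1, ENSMUSG00000029648), Kdr (VEGF receptor 2, ENSMUSG00000062960) and Flt4 (VEGF receptor 3, ENSMUSG00000020357). Angpt1 (ENSMUSG00000022309) and Angpt2 (ENSMUSG00000031465) are the angiopoietins, and Tek (Tie2, ENSMUSG00000006386) and Tie1 (ENSMUSG00000033191) the receptor tyrosine kinases they act through.

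The study used single-nucleus RNA sequencing to ask how running changes heart cells with and without a myocardial infarct. Wild-type C57BL/6J mice of both sexes, 8 weeks old at the start, either ran voluntarily on a wheel for 16 weeks or stayed sedentary. From each arm, 2 mice gave hearts at that point (the sedentary and running groups), and 4 mice had a surgical infarct and gave hearts 2 weeks later (the sedentary infarct and running infarct groups). The ventricles of a group were pooled before nuclei were sorted by their DNA stain, and each pool went into a well of its own, so every group is 1 library and no test between groups was possible. All intervals are at 95% and reflect counting error alone. The spread between mice is not known.

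VEGF-A binds Flt1 and Kdr on blood vessel endothelium. Kdr carries most of the signal for growth and permeability, and Flt1, which also binds VEGF-B, limits how much VEGF-A reaches it. VEGF-C acts mainly through Flt4 and is best known for lymphatic growth. Angpt1 activates Tek and keeps vessels quiet, while Angpt2 can oppose it, and Tie1 is a partner receptor with no ligand of its own that modulates Tek. In the heart, myocytes supply much of the VEGF-A, and endothelial cells hold the receptors.

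Flt1, Kdr, Tek and Tie1 are the receptor genes with high levels in blood vessel endothelium, and so the 250 bases before their start sites are shown, from RefSeq on GRCm38.p6 (the counts themselves were made on GRCm39). Capitals mark GGAA on either strand (written TTCC where it lies on the other), the core letters bound by ETS factors, a family active in endothelium. The windows are Flt1 at chr5:147726012-147726261 and Kdr at chr5:75978456-75978705 on the minus strand, Tek at chr4:94739039-94739288 on the plus strand, and Tie1 at chr4:118489850-118490099 on the minus strand.
Flt1: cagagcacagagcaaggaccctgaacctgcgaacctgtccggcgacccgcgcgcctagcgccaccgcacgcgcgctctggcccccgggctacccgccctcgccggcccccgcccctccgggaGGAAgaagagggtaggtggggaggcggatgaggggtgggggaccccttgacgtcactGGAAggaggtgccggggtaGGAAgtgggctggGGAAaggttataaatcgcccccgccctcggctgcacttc
Kdr: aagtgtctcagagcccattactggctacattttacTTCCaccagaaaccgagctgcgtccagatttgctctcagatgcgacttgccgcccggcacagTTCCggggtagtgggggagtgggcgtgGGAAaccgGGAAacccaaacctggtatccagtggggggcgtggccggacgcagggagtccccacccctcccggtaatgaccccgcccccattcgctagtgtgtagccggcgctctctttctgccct
Tek: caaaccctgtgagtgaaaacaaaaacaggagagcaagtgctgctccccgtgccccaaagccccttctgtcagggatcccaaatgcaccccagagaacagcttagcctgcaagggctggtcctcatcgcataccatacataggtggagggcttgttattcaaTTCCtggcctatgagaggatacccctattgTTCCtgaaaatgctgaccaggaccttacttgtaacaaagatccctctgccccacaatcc
Tie1: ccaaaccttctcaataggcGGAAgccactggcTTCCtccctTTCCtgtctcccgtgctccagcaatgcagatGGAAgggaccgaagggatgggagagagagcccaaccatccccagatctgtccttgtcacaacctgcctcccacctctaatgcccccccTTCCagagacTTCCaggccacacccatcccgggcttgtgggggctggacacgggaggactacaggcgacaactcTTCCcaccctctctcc
The core occurred 4 times before Flt1, 4 times before Kdr, 2 times before Tek and 7 times before Tie1. Of 32851 mouse promoter windows of this length, 93.4% held it at least once, with a median of 3. Windows with at least 7 made up 3.82% of all, and windows with at least 4 made up 33.4%. The matches are a description of letters, not of binding. The table held 8 of the 10 genes, all but Angpt1 and Angpt2.

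The 4 libraries held 3243 to 6253 barcodes and 26170995 to 37533722 UMIs (unique molecular identifiers, each standing for 1 captured RNA molecule), with medians of 2910.5 to 4214 UMIs per barcode. Cell classes were rebuilt from marker genes, with the members and their pathway genes kept out of the clustering, and are called "-like". The pairs of libraries shared 2 to 12 barcodes. Clusters that mixed lineages, scored as doublets or had weak markers stayed unnamed, as did the largest of them, 1597 nuclei with a median of 627 UMIs and no marker of its nearest type among its leading genes. The named clusters with medians under 1500 UMIs each had a marker of their own type among their leading genes. The unnamed clusters held 14.1 to 25.3% of nuclei. They held between 27.7% (Vegfa in the sedentary library) and 56.7% (Flt1 in the sedentary infarct library) of a member's UMIs. These UMIs enter no class level given below. Y-positive nuclei, those in which Y-linked genes gave 2 UMIs or more, made up 31.8 and 35.2% of named nuclei in the sedentary and running libraries. In their infarct partners they made up 16.3 and 16.5%, so this measure of sex moved with infarct among named nuclei. Of unnamed nuclei, 36.8 and 35.2% were Y-positive in the sedentary and running libraries and 36.1 and 43.5% in their infarct partners. The part of depth in these shares was not tested. Levels below are UMIs per 1000000 of the class total without mitochondrially encoded genes (CPM), in the order sedentary, running, sedentary infarct and running infarct. They are from nuclear RNA read at the 3′ end, so they are compared within a gene and not between genes.

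Expression of most of the 10 genes was sharply divided among the classes. Vegfb and Angpt2 were spread more broadly, with means of 25.3 to 43.0% and 25.3 to 40.3% of their top class in the others. Vegfa and Vegfb were highest in cardiomyocyte-like nuclei, Flt1, Vegfc and Tek in vascular endothelial-like nuclei, and Flt4 and Angpt2 in lymphatic endothelial-like nuclei. Tie1 was shared by the 3 endothelial classes. Angpt1 was highest in cardiomyocyte-like nuclei, followed by fibroblast-like nuclei, in the libraries without infarct. Kdr differed from the other receptors: in those libraries its level in mesothelial-like nuclei, the outer covering of the heart, stood above that of each endothelial class taken whole. A capillary-like part of the vascular class, described below, came close to it.

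**Figure D1:**
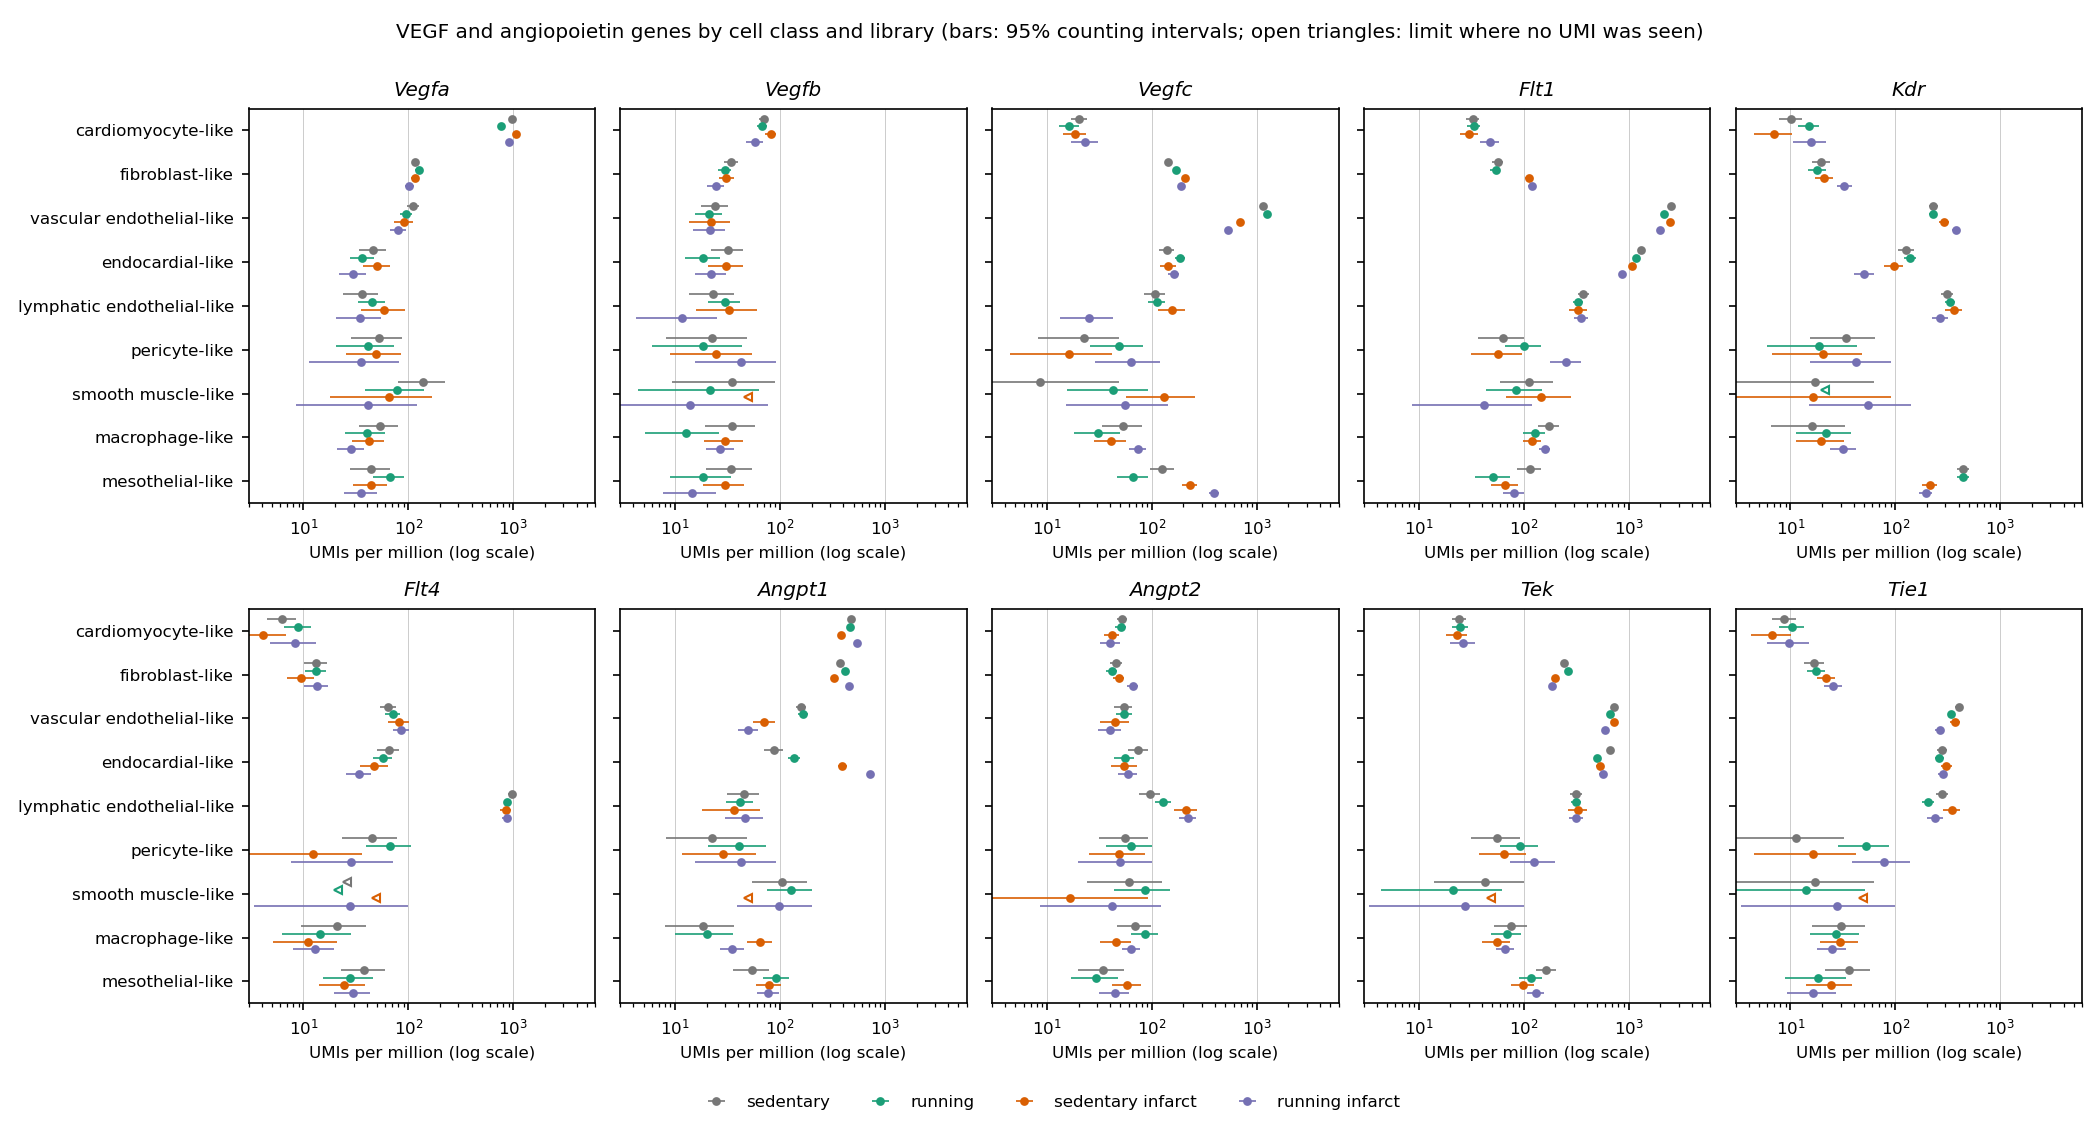
Levels of the 10 genes (CPM, log scale) in 9 cell classes, with 1 point per library and 95% counting intervals; open triangles mark the limit that no UMI allows. Flt1 is far higher in vascular endothelial-like and endocardial-like nuclei than elsewhere, and Flt4 in lymphatic endothelial-like nuclei alone. The points of the 4 libraries lie far apart for Angpt1 in endocardial-like nuclei (87.2 to 719.6 CPM) and for Kdr and Vegfc in mesothelial-like nuclei.

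Among the ligands, Vegfa in cardiomyocyte-like nuclei stood at 960, 758, 1064 and 910 CPM. The next class, fibroblast-like, held 102 to 125 CPM, and vascular endothelial-like nuclei 80.0 to 110 CPM, ranges that overlap. Cardiomyocyte markers in the vascular endothelial-like nuclei summed to 5.2 to 7.6% of their level in cardiomyocyte-like nuclei, where Vegfa reached 8.5 to 12.5% of it. The part of free RNA in the endothelial value was not tested. The sedentary infarct library had a Vegfa level 1.11 times that of the sedentary library (1.06 to 1.15), and the running infarct library 1.20 times that of the running library (1.14 to 1.27). Both running libraries were below their sedentary partners, by ratios of 0.79 (0.76 to 0.82) without infarct and 0.86 (0.81 to 0.90) with it.

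None of these Vegfa ratios reached 1.5-fold. With every nucleus thinned to 1000 UMIs, 57.0, 47.8, 57.1 and 49.5% of cardiomyocyte-like nuclei had a Vegfa UMI, against 5.6, 5.5, 4.2 and 2.9% of macrophage-like nuclei. Before thinning the shares were 91.3, 88.9, 86.5 and 64.6%. A cardiomyocyte-like cluster of low depth, led by Xirp2, Nppa and Ankrd1, made up 12.4, 14.4, 21.5 and 51.1% of the class. It held 455, 427, 718 and 519 CPM of Vegfa, whereas the main cluster held 975, 773, 1076 and 973 CPM. Within the main cluster the ratio of running to sedentary was again 0.79 (0.76 to 0.82). With a stricter filter of barcodes (800 genes, 5% mitochondrial UMIs) the log2 ratio was 0.07 in place of -0.34, so the lower level with running depended on that limit. The log2 ratio of sedentary infarct over sedentary was -0.21 among Y-positive nuclei, against 0.43 among Y-negative ones. Y-negative nuclei are those with no UMI of the Y-linked genes, and nuclei between these limits are in neither set.

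Vegfb, the ligand of Flt1 alone, was at 69.5, 67.4, 81.2 and 57.6 CPM in cardiomyocyte-like nuclei and 24.4 to 33.9 CPM in fibroblast-like nuclei. No Vegfb ratio among measured pairs reached 1.5-fold.

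Vegfc was at 1157, 1252, 693 and 532 CPM in vascular endothelial-like nuclei. Fibroblast-like (144 to 207 CPM) and endocardial-like nuclei (138 to 186 CPM) had ranges that overlap. Mesothelial-like nuclei lay below both in the libraries without infarct and above both in the infarct libraries. In the sedentary and sedentary infarct libraries the mesothelial intervals, given below, held the fibroblast-like level, so that order is not clear there. Both infarct libraries were lower than their partners in vascular endothelium, by 0.60 (0.55 to 0.65) in sedentary and 0.43 (0.39 to 0.46) in running mice. The class is a mix of 3 clusters that differed in Vegfc. Cluster 17, called arterial-like because Gja5, Sema3g and Sox17 led it, held 1608, 1979, 1725 and 1462 CPM. Cluster 12, to which no vessel type was assigned, held 1194, 1300, 911 and 1093 CPM, and capillary-like cluster 13 held only 139, 185, 247 and 207 CPM.

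The mix moved with infarct, and the capillary-like share was also higher in each running library than in its sedentary partner. The capillary-like cluster made up 28.9, 40.6, 58.6 and 78.1% of the class, cluster 12 46.9, 36.3, 32.6 and 16.5%, and the arterial-like cluster 24.2, 23.1, 8.9 and 5.4%. Holding the mix fixed, an alternative chosen after the clusters were seen, took the log2 ratio from -0.74 to -0.04 in sedentary and from -1.23 to -0.26 in running mice. The lower class level of Vegfc thus moved with a smaller share of the Vegfc-rich clusters, and within clusters 12 and 17 the infarct ratios lay between 0.74 and 1.07. In the capillary-like cluster they went the other way, at 1.77 (1.23 to 2.59) in sedentary and 1.12 (0.88 to 1.43) in running mice. The capillary-like cluster was also the shallowest, with a median of 1251 UMIs per nucleus against 2941.5 and 3000. Fewer nuclei of a kind and a different assignment of shallow nuclei cannot be told apart here.

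In mesothelial-like nuclei Vegfc went the other way. Its level was 126 (96.7 to 161), 66.3 (46.4 to 91.8), 229 (195 to 267) and 392 CPM (352 to 435), the highest in the running infarct library and the lowest in the running library. The ratio was 1.82 (1.35 to 2.48) for sedentary infarct over sedentary and 5.91 (4.19 to 8.58) for running infarct over running. After thinning, 7.8, 6.0, 13.1 and 15.7% of these nuclei had a Vegfc UMI (23.1, 18.0, 28.6 and 31.7% unthinned), against 2.1 to 4.0% of cardiomyocyte-like nuclei. A few nuclei carried much of it: the top 10 nuclei of a library held 60.4 to 77.8% of its mesothelial Vegfc UMIs, and nuclei with 5 or more made up 3.8, 1.0, 8.3 and 10.1%. Fibroblast markers in this class summed to 37.6, 31.4, 63.4 and 62.2% of their fibroblast-like level and so were also higher with infarct. Vegfc stood at 87.6, 39.1, 110 and 205% of its fibroblast-like level. The part of fibroblast RNA in the result was not tested. Among Y-negative nuclei the sedentary log2 ratio was 0.35, against 0.86 in all.

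In lymphatic endothelial-like nuclei Vegfc was at 106, 112, 154 and 25.1 CPM. The running infarct library had 0.23 of the level of the running library (0.12 to 0.40) from 13 UMIs, and the top 10 nuclei held at least 81.5% of the UMIs in every library.

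Of the VEGF receptors, Flt1 was at 2520, 2165, 2454 and 2008 CPM in vascular endothelial-like nuclei and 1311, 1182, 1066 and 869 CPM in endocardial-like nuclei, the inner lining of the heart. Lymphatic endothelial-like nuclei followed at 329 to 372 CPM. The vascular ratios were 0.97 (0.93 to 1.02) and 0.93 (0.89 to 0.97) for infarct in sedentary and running mice, and the endocardial ratios 0.81 (0.75 to 0.88) and 0.74 (0.69 to 0.79). None reached 1.5-fold. Within the 3 vascular clusters the ratios of Flt1 ranged from 0.87 to 1.25.

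Flt1 in fibroblast-like nuclei was low, at 56.8, 53.9, 113 and 120 CPM, with infarct ratios of 1.99 (1.72 to 2.30) and 2.22 (1.93 to 2.56). The difference lay between clusters. The resting clusters 0 and 1 held 31.5 to 63.8 CPM in all 4 libraries, while cluster 10, led by Col12a1, Col11a1 and Kcnma1 and with 20 or more nuclei only in the infarct libraries, held 182 and 180 CPM. That is 7.4 and 9.0% of the vascular endothelial-like level, in a cluster where the 12 vascular endothelial markers summed to 9.8 and 12.4% of theirs, against 4.2 to 5.5% in clusters 0 and 1. Flt1 in cluster 10 was thus no higher than the marker sum. Cluster 21, led by Wif1, held 365 CPM (272 to 480) in the sedentary infarct library, 14.9% of the vascular level. In the running infarct library cluster 21 held 140 CPM (79.8 to 227), 7.0% of that level. The shallow cluster 2 held 176 and 130 CPM in the infarct libraries. Whether Flt1 in these clusters is their own was not tested. The class ratio also turned in direction with other cluster settings.

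Kdr was at 230, 226, 291 and 379 CPM in vascular endothelial-like nuclei and 312, 331, 361 and 267 CPM in lymphatic endothelial-like nuclei, ranges that overlap. In the vascular class the infarct ratios were 1.27 (1.09 to 1.47) in sedentary and 1.67 (1.49 to 1.89) in running mice. Kdr was richest in the capillary-like cluster, at 402 to 470.0 CPM, and lowest in the arterial-like cluster, so its higher class level moved with the same shift in the mix as the lower Vegfc. With the mix held fixed the log2 ratios were -0.11 and 0.16 in place of 0.34 and 0.74.

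**Figure D2:**
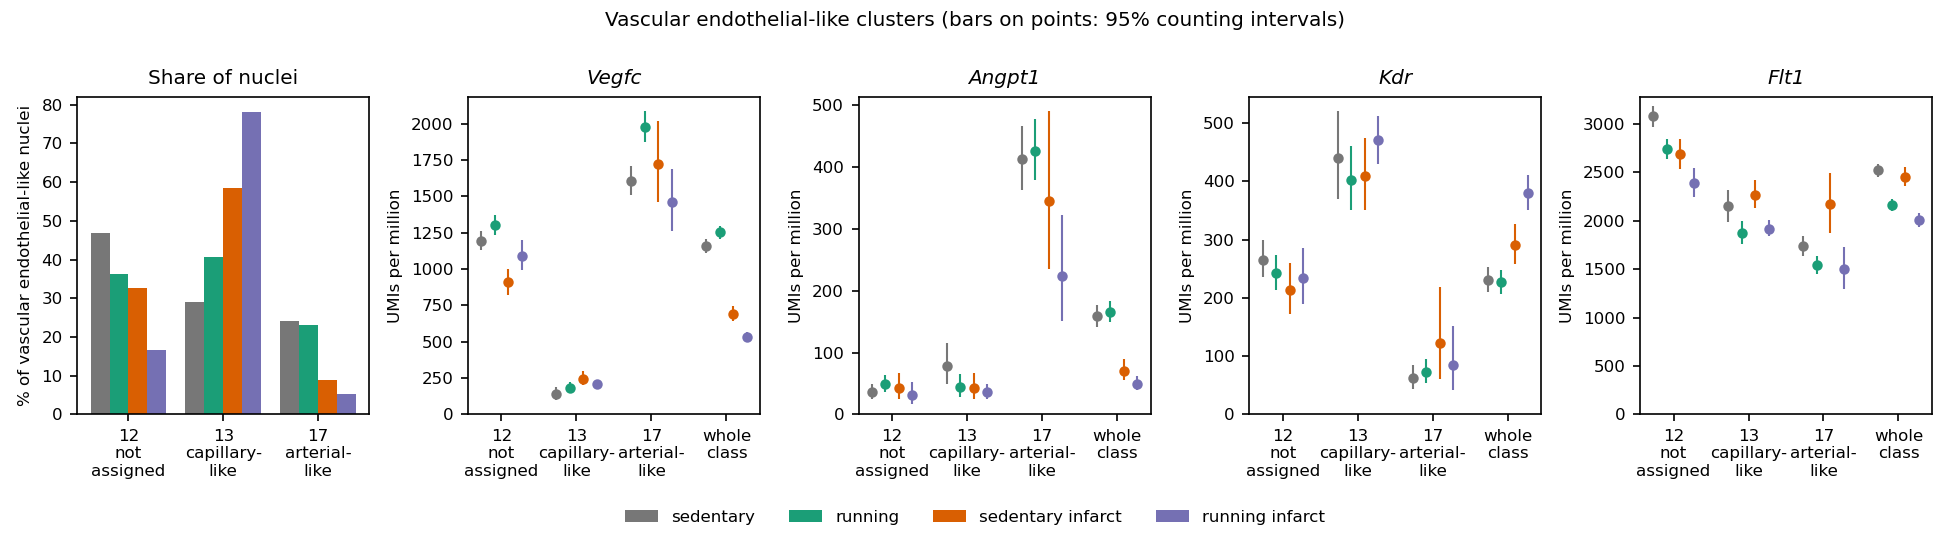
Left, the percentage of vascular endothelial-like nuclei in each of the 3 clusters by library; right, Vegfc, Angpt1, Kdr and Flt1 (CPM, 95% counting intervals) in each cluster and in the whole class. The capillary-like cluster, poor in Vegfc and Angpt1 and rich in Kdr, has its smallest share in the sedentary library (28.9%). Its largest share is in the running infarct library (78.1%), and the share is higher both with infarct and with running.

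Mesothelial-like nuclei had less Kdr RNA with infarct in both arms. The level was 443 (387 to 506), 444 (389 to 503), 212 (179 to 249) and 195 CPM (167 to 226), and the libraries with and without infarct did not overlap. The ratios were 0.48 (0.39 to 0.59) and 0.44 (0.36 to 0.54), which is 2.09-fold and 2.28-fold lower. After thinning, 30.4, 34.0, 23.1 and 16.2% of the nuclei had a Kdr UMI (69.2, 73.0, 43.6 and 38.7% unthinned), against 0.9 to 1.9% of cardiomyocyte-like nuclei. Vascular endothelial markers reached only 5.5 to 8.9% of their own level in this class, whereas Kdr reached 51.4 to 196% of its vascular level. The capillary-like vascular cluster held 440 and 402 CPM of Kdr in the sedentary and running libraries, inside the mesothelial intervals. The class comes from a single cluster of 536 nuclei led by Muc16, Upk1b and other mesothelial genes. Kdr and Vegfc thus differed in opposite directions in the same class. Of the other receptors there, Flt1 (51.6 to 114 CPM) and Tek (98.1 to 164 CPM) had sedentary infarct ratios of 0.59 (0.39 to 0.88) and 0.60 (0.43 to 0.84). In running mice the ratios were 1.56 (1.00 to 2.50) and 1.10. Flt1 lay at 2.4 to 4.5% of its vascular level, below the marker sum.

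Endocardial-like nuclei had 127, 139, 96.9 and 50.3 CPM of Kdr, lowest in the running infarct library. The ratio was 0.77 (0.58 to 1.01) in sedentary and 0.36 (0.28 to 0.47) in running mice, and 0.52 (0.38 to 0.71) between the infarct libraries. In fibroblast-like nuclei Kdr was at 18.0 to 32.7 CPM, 7.2 to 8.6% of its vascular level, close to the 4.8 to 9.1% of the vascular markers there. Its ratio was 1.82 (1.40 to 2.36) in running mice, and the vascular markers summed to 551 CPM in the running and 949 CPM in the running infarct library. In sedentary mice the log2 ratio of Kdr was 0.11, and the markers summed to 510 CPM without and 760 CPM with infarct. The part of vascular RNA in these Kdr values was not tested.

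Flt4 marked lymphatic endothelial-like nuclei at 965, 867, 842 and 864 CPM. Vascular endothelial-like nuclei held 64.3 to 85.5 CPM, a range that overlaps that of endocardial-like nuclei. Its lymphatic level was even across libraries, with infarct ratios of 0.87 (0.75 to 1.01) and 1.00 (0.89 to 1.12). In endocardial-like nuclei Flt4 was at 64.7, 56.8, 47.4 and 34.0 CPM, a ratio of 0.60 (0.42 to 0.85) in running mice.

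Angpt1 in endocardial-like nuclei differed most among the measured pairs of sedentary mice, and in running mice only Vegfc in mesothelial-like nuclei, above, had a larger ratio. The level was 87.2 (70.4 to 107), 135 (118 to 155), 391 (352 to 433) and 720 CPM (679 to 763), with every library apart from the next. Infarct went with 4.48 times the level in sedentary (3.56 to 5.69) and 5.32 times in running mice (4.59 to 6.19). Running went with 1.55 times without infarct (1.21 to 2.00) and 1.84 times with it (1.64 to 2.08). After thinning, 7.6, 11.0, 15.7 and 22.9% of the nuclei had an Angpt1 UMI (16.0, 23.2, 39.5 and 38.3% unthinned), against 0.8, 1.2, 3.2 and 3.5% of macrophage-like nuclei.

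The higher level moved with nuclei that held many UMIs. Nuclei with 5 or more Angpt1 UMIs made up 1.2% (0.3 to 3.1), 1.8% (0.8 to 3.6), 8.8% (5.4 to 13.5) and 14.3% (11.0 to 18.1) of the class. The cluster, 1373 nuclei led by Nrg1, Smoc1, Tmem108 and Npr3, was named from endocardial markers. The 8 endocardial markers themselves summed to 7788, 8787, 14336 and 20733 CPM in the class and so were also higher with infarct, and the part of a different make-up of the class in the Angpt1 result was not tested. Fibroblast markers in it summed to 19.1, 15.9, 28.5 and 30.4% of their fibroblast-like level, while Angpt1 stood at 23.5, 32.3, 121 and 160% of its fibroblast-like level. In the infarct libraries Angpt1 was thus higher in the endocardial-like nuclei than in the fibroblast-like nuclei. The log2 infarct ratios were 2.50 in sedentary and 2.12 in running mice among Y-positive nuclei, and 2.05 and 3.08 among Y-negative nuclei. The log2 ratio of running over sedentary was 1.45 among Y-positive nuclei, against 0.14 among the Y-negative ones.

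**Figure D3:**
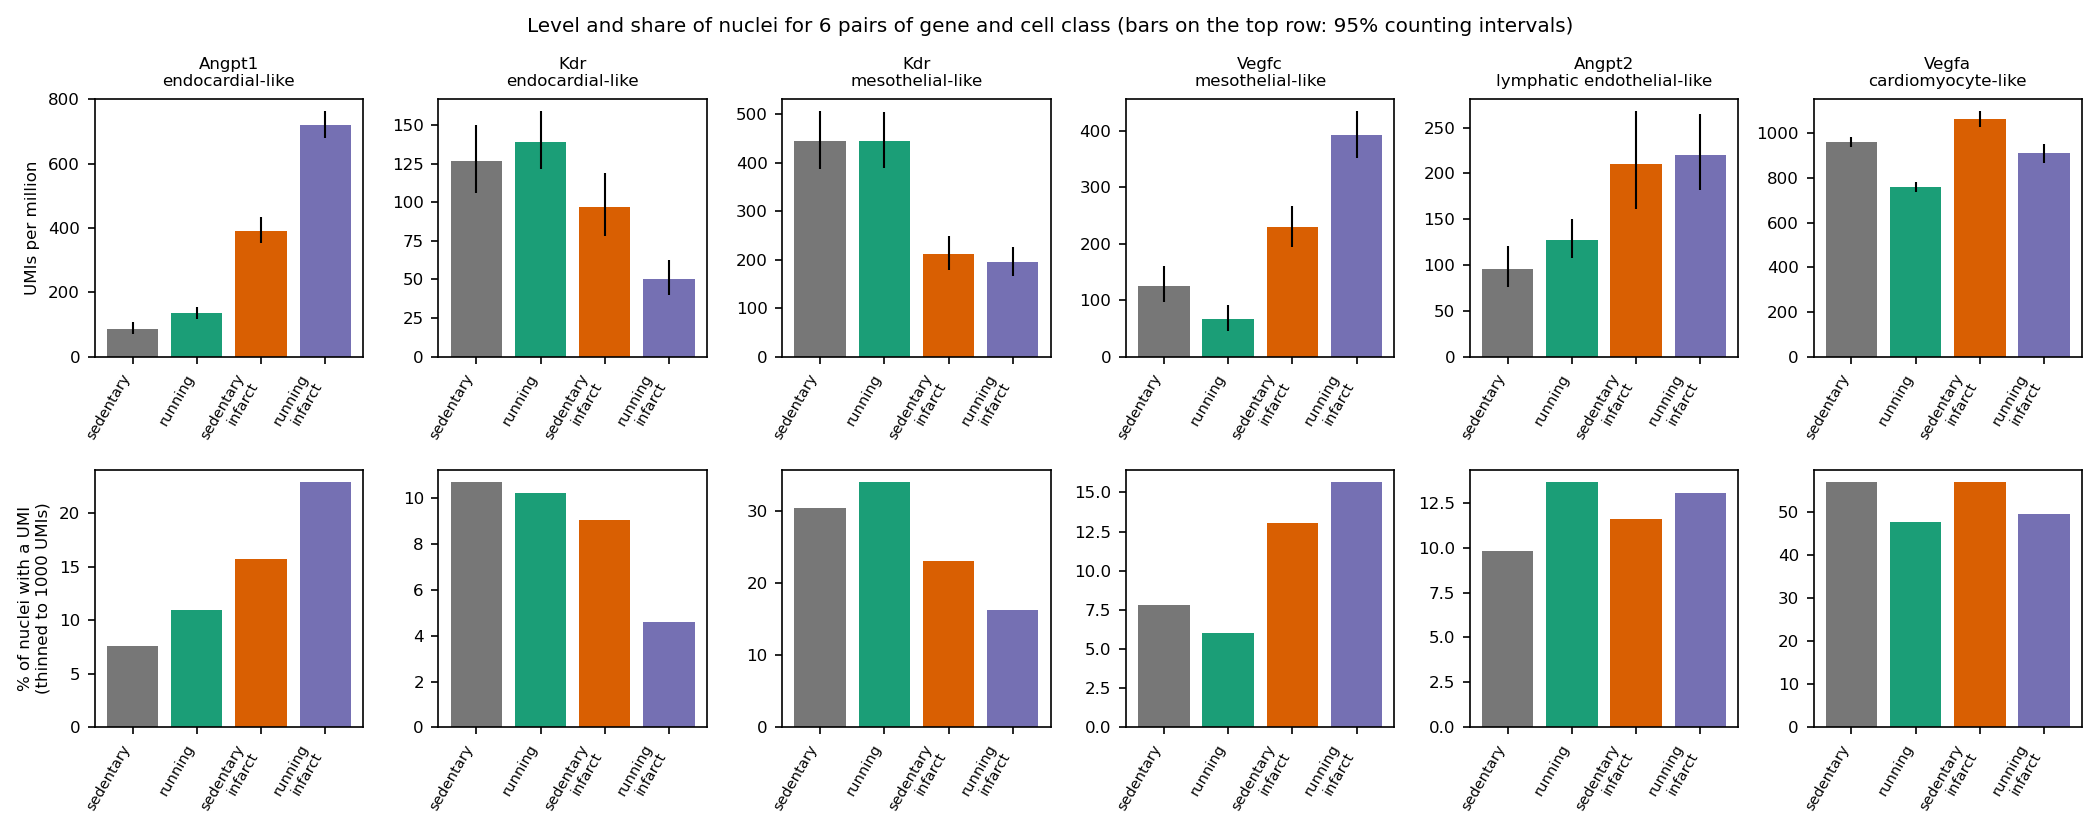
Top row, CPM with 95% counting intervals; bottom row, the percentage of nuclei with a UMI after thinning to 1000 UMIs, for 6 pairs of gene and cell class in the 4 libraries. Angpt1 spans 87.2 to 720 CPM in endocardial-like nuclei, highest in the infarct libraries, Kdr is lower with infarct there and in mesothelial-like nuclei, and Vegfa in cardiomyocyte-like nuclei stays within 758 to 1064 CPM.

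In cardiomyocyte-like and fibroblast-like nuclei, the classes richest in Angpt1 without infarct, no ratio of the whole class reached 1.5-fold. Some clusters passed it for running infarct over sedentary infarct. Fibroblast-like clusters 0 and 1 had 1.67 (1.46 to 1.91) and 1.70 (1.45 to 2.00), and clusters 2, 10 and 21 had 1.91, 1.27 and 1.05. The main cardiomyocyte-like cluster had 1.40 (1.28 to 1.52) and the cluster of low depth 2.90 (1.85 to 4.77), from 153 and 22 UMIs. Cardiomyocyte-like nuclei held 469, 468, 383 and 542 CPM, and fibroblast-like nuclei 371, 418, 323 and 449 CPM, ranges that overlap. In vascular endothelial-like nuclei Angpt1 was at 159, 165, 70.7 and 49.5 CPM, ratios of 0.44 (0.34 to 0.58) and 0.30 (0.23 to 0.38) with infarct. Its level was highest in the arterial-like cluster, at 413, 426, 345 and 224 CPM, against 31.0 to 77.7 CPM in the other clusters. The log2 ratios of -1.17 and -1.74 became -0.38 and -0.72 with the mix held fixed. Within the arterial-like cluster the running infarct library still had 0.53 of the running level (0.35 to 0.77), from 29 UMIs.

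Angpt2, the context-dependent antagonist, was highest in lymphatic endothelial-like nuclei, at 96.1, 128, 210 and 220 CPM, with infarct ratios of 2.18 (1.54 to 3.09) and 1.72 (1.34 to 2.22). Only 64 and 114 UMIs stood behind the infarct values, and the top 10 nuclei held 90.6% of them in the sedentary infarct library. The thinned share of nuclei with an Angpt2 UMI (9.84 to 13.7%) did not follow the CPM, and in Y-positive nuclei the log2 ratios were 0.02 and -0.08. In vascular endothelial-like nuclei Angpt2 was at 39.7 to 54.6 CPM, and in fibroblast-like nuclei at 41.3 to 65.6 CPM, with a ratio of 1.59 (1.33 to 1.89) in running mice.

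Tek was at 731, 669, 730 and 590 CPM in vascular endothelial-like, 669, 498, 538 and 564 CPM in endocardial-like, and 315 to 328 CPM in lymphatic endothelial-like nuclei. The vascular and endocardial ranges overlap, and the lymphatic range lies below them. Fibroblast-like nuclei also carried Tek, at 244, 266, 198 and 186 CPM, which is 27.1 to 39.7% of the vascular level where the vascular markers summed to 4.8 to 9.1%. After thinning, 16.9, 22.2, 17.2 and 13.9% of fibroblast-like nuclei had a Tek UMI (46.5, 50.6, 46.9 and 37.4% unthinned), against 2.1 to 3.3% of cardiomyocyte-like nuclei. In fibroblasts the infarct ratios were 0.81 (0.74 to 0.88) and 0.70 (0.64 to 0.76), short of 1.5-fold. Cluster 10 held 173 and 161 CPM in the infarct libraries, against 202 to 321 CPM in clusters 0 and 1 over all libraries.

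Tie1 kept to the 3 endothelial classes, with overlapping ranges of 264 to 400 CPM in vascular, 262 to 306 CPM in endocardial and 204 to 344 CPM in lymphatic endothelial-like nuclei. In fibroblast-like nuclei it was at 16.8 to 25.5 CPM, 4.2 to 9.7% of the vascular level and so near the markers' sum. No Tie1 ratio among measured pairs of gene and class reached 1.5-fold. Within the capillary-like cluster the infarct ratio was 0.63 (0.52 to 0.77) in running and 0.88 (0.69 to 1.13) in sedentary mice. In the other vascular clusters the infarct ratios lay between 0.85 and 0.99.

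Over the family, 80 pairs of gene and class were set side by side in each comparison, from 8 classes, and a pair counted as measured with at least 100 UMIs over both libraries. For sedentary infarct over sedentary, 46 pairs were measured, of which 4 were at least 1.5-fold higher (8.70%) and 5 lower (10.9%), against 6.53 and 6.7% of all measured gene and class pairs. For running infarct over running, 52 were measured, 9 higher (17.3%) and 6 lower (11.5%), against 6.74 and 8.37%. Only 1 of 47 was higher and 0 lower for running over sedentary, the Angpt1 pair in endocardial-like nuclei, against 3.26 and 2.25%. Between the infarct libraries, 5 of 49 were higher with running (10.2%) and 2 lower (4.08%), against 2.88 and 3.42%. The comparisons share libraries, so their counts are not independent. Pericyte-like nuclei gave no measured pair. In macrophage-like nuclei Vegfc was called higher in the running infarct library, at 73.6 against 30.8 CPM in the running library, from 120 and 17 UMIs.

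The shares over all genes differed by class. In endocardial-like nuclei, where 1 member pair was called higher in each infarct comparison, 6.22 and 5.72% of measured genes were higher in sedentary and running mice and 6.67 and 10.9% lower. In mesothelial-like nuclei 9.81 and 9.52% were higher and 7.49 and 7.96% lower. In fibroblast-like nuclei 7.29 and 8.18% were higher and 7.33 and 8.88% lower, and in lymphatic endothelial-like nuclei 5.2 and 5.18% higher and 8.21 and 7.69% lower. Vascular endothelial-like nuclei had 5.24 and 5.24% higher and 7.03 and 8.62% lower with infarct. With running they had 3.32% higher and 1.95% lower without infarct, and 2.09% higher and 2.99% lower with it.

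**Figure D4:**
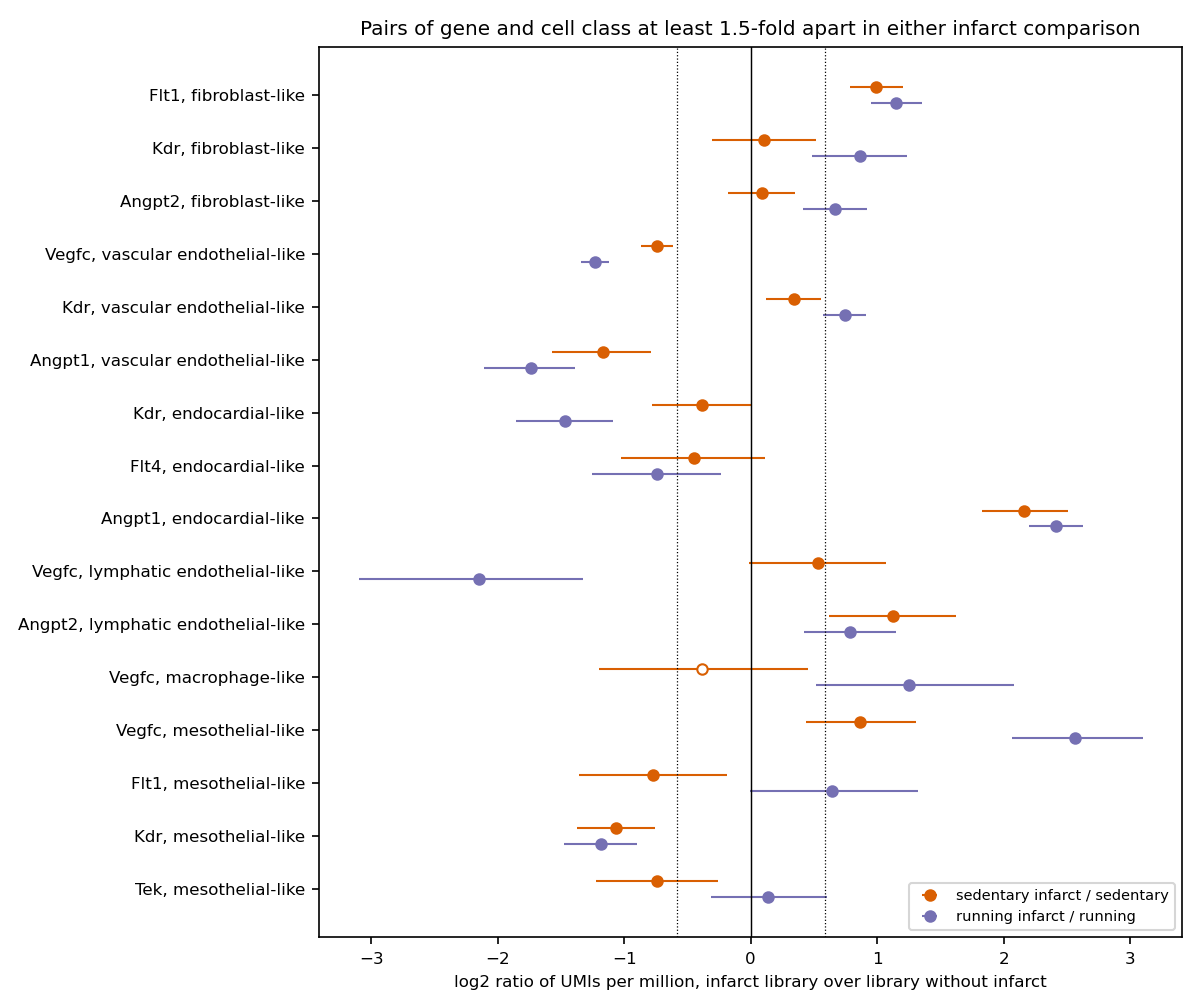
Log2 ratios of the infarct library over its partner, with 95% counting intervals, for each pair of gene and cell class that was at least 1.5-fold apart (dotted lines) in either arm; an open point has under 100 UMIs. Angpt1 in endocardial-like nuclei and Vegfc in mesothelial-like nuclei lie farthest to the right, and Vegfc in lymphatic endothelial-like nuclei of running mice, from few UMIs, farthest to the left.

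The pathway around the receptors was read from 3 lists in vascular endothelial-like nuclei. Of 19 tip-cell and VEGF-responsive genes, 10 were measured for sedentary infarct over sedentary, and 7 were higher and 0 lower, with a median log2 ratio of 0.84 against 0.00 for all 5819 measured genes, of which 5.24% were higher. For running infarct over running, 8 of 11 were higher, with a median of 1.40 against -0.06 for all 6892. Running over sedentary gave 1 of 11 higher and a median of -0.02, and running infarct over sedentary infarct 0 of 11 and 0.12. Fibroblast markers in the vascular endothelial-like nuclei summed to 1576, 1654, 1693 and 1736 CPM. That was 18.05, 17.04, 24.26 and 27.39% of their fibroblast-like level. The part of fibroblast RNA in the ratios of this list was not tested.

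Several of these genes encode vessel basement membrane. Col4a2, a collagen IV chain, was at 285, 193, 547 and 755 CPM, ratios of 1.92 (1.70 to 2.16) and 3.91 (3.50 to 4.37). Nid2, nidogen 2, was at 28.4, 28.9, 66.6 and 86.1 CPM, ratios of 2.35 (1.61 to 3.42) and 2.98 (2.21 to 4.07). Col4a1, the partner chain, had 422, 315, 701 and 960 CPM and a ratio of 3.04 (2.78 to 3.33) in running mice. Igfbp3, a binder of insulin-like growth factors, was at 25.3, 26.6, 94.6 and 89.8 CPM, ratios of 3.74 (2.62 to 5.39) and 3.37 (2.48 to 4.63). Unc5b, a guidance receptor of tip cells, went from 45.6 to 98.8 CPM in sedentary mice, 2.17 times (1.61 to 2.93).

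These 5 genes were picked by their ratios in the whole class. Most nuclei of the class lie in the capillary-like cluster in the infarct libraries, so ratios there are not independent of that choice. Inside the capillary-like cluster all 5 genes were higher with infarct in both arms, by less than 1.5-fold for Col4a1 and Col4a2 in sedentary mice. Col4a2 there had ratios of 1.29 (1.07 to 1.56) and 2.95 (2.51 to 3.49), Igfbp3 5.16 (2.55 to 11.8) and 4.49 (2.47 to 8.96), and Nid2 2.70 (1.36 to 5.83) and 1.82 (1.24 to 2.72). Col4a1 had 1.39 (1.17 to 1.65) and 2.15 (1.89 to 2.45), and Unc5b 2.01 (1.28 to 3.25) and 1.68 (1.22 to 2.36). Esm1, a classic tip-cell gene, had 0 UMIs in the sedentary and running libraries, which allows up to 1.52 and 1.33 CPM (3 UMIs), and 1 and 5 UMIs in the infarct libraries. Egr3, an early-response transcription factor, was the gene higher with running, at 12.7 and 33.3 CPM without infarct, a ratio of 2.63 (1.65 to 4.32).

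Signal transducers below the receptors had medians near those of all genes. Of 24, 21 were measured for each infarct comparison, with 0 higher and 0 lower in sedentary mice and 3 higher and 0 lower in running mice, and the medians were 0.00 and 0.04. Of 13 other ligands, co-receptors and regulators, 1 of 6 measured was higher in sedentary mice. In running mice 1 of 9 was higher and 1 lower, Ccbe1, a helper of VEGF-C processing, at 0.53 (0.34 to 0.80). The gene higher in both was Nrp2, a co-receptor for VEGF-C, at 436, 575, 668 and 899 CPM. Both were named after their values were seen.

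The genes whose pattern was nearest to each member were found by Pearson's r of log2(CPM + 10) over 35 sums of class and library, among 13370 genes. The sums share libraries and classes, so the values describe and test nothing. Tie1 was nearest to Egfl7 (r of 0.98), Rassf9 and Shank3 (both 0.97). Tek was nearest to Jcad (0.95), and Flt1 to Cyyr1 (0.97), Adgrl4 and Sox7 (both 0.95). Kdr was nearest to Sema3f (0.96), Sh3tc2 (0.94) and Npr1 (0.90), and Flt4 to Adgrg3 (0.96), Tnfaip8l1 (0.92) and Nts (0.91). Among ligands, Vegfa was nearest to Cmya5 and Clasp1 (both 0.95) and Kif28 (0.93), Vegfb to Bri3bp (0.90), and Vegfc to Lims2 (0.89). Angpt2 was nearest to Tbx1 (0.82) and Angpt1 to Pam (0.81), the weakest likeness of the 10. Egfl7, Cyyr1, Adgrl4 and Tbx1 are among the markers that named the classes. Between members, Flt1 and Tie1 were closest (0.93), then Tek and Tie1 (0.87) and Flt1 and Tek (0.86).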

How the data were processed

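Single-nucleus libraries of 4 groups were analysed from the deposited matrices of raw UMI counts per gene and barcode. Cell Ranger 7.1 and GRCm39 are named in the submitters' processing notes, and the chemistry is 10x 3′ per the labels' protocols. Whether introns were counted is not given in the sources used here. A barcode needed 300 genes or more, and up to 20% of its UMIs could be mitochondrial. The highest Scrublet scores were removed at 0.8% per 1000 barcodes, leaving 5110, 5823, 3123 and 4709 nuclei. With scanpy 1.11.5, 3000 variable genes without the members and lists, 40 components, 15 neighbours and Leiden resolution 1 gave clusters, which were named from 140 markers of 18 types. A cluster of low depth with no marker of its type among its leading genes stayed unnamed. Limits on mixing (0.5), doublet score (0.1) and the second split of mural clusters (resolution 0.5) were set after the clusters were seen. Raw counts were summed by class and library and divided by the class total without the 37 mitochondrially encoded genes. CPM carry exact Poisson, ratios exact conditional binomial, and shares exact Clopper-Pearson intervals, at 95%, for counting error only. A ratio was called at 1.5-fold with at least 100 UMIs, and the code was tested on simulated data. A list of genes is described by its counts and median; all 10 members are named, and list genes where the interval lies wholly beyond 1.5-fold, at most 4 per list and comparison, with exceptions said. Members and lists were chosen with earlier results of these data known. Xist is not used here.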

Additional observations from a re-analysis of the deposited data

Results flagged for a closer look

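In 3 pairs the infarct and control libraries differed in opposite directions in sedentary and running mice, with counting intervals that exclude an even ratio in each arm. The difference between arms was not tested, since each group is 1 library. Angpt1 in cardiomyocyte-like nuclei had log2 ratios of -0.29 in sedentary and 0.21 in running mice, a difference of 0.51 (counting interval 0.37 to 0.65). It was higher in the running infarct than in the sedentary infarct library, at 542 and 383 CPM, whereas the libraries without infarct stood at 468 and 469 CPM. Among Y-negative nuclei the running ratio was -0.13. Angpt1 in fibroblast-like nuclei had -0.20 and 0.10, a difference of 0.30 (0.17 to 0.43), and among Y-negative nuclei the sedentary ratio was 0.17. Within cluster 0 the plain ratios were 0.99 (0.89 to 1.10) in sedentary and 1.41 (1.26 to 1.57) in running mice. Within cluster 1 they were 0.82 (0.70 to 0.96) and 1.21 (1.06 to 1.38). The opposite directions were thus seen in cluster 1 and not in cluster 0. Tek in endocardial-like nuclei had -0.31 and 0.18, a difference of 0.50 (0.28 to 0.71). There the sedentary library was the high value at 669 CPM, and the others stood at 498 to 564 CPM.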

How the results depend on the processing

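Over 16 alternatives, of which the vascular mix held fixed and the removal of clusters of low depth were chosen after seeing the data, 32 called ratios were recomputed. Per alternative, 23 to 32 of them stayed past 1.5-fold in the same direction. Angpt1 in endocardial-like nuclei stayed past 1.5-fold in the same direction in all of them (log2 1.89 to 2.93 in sedentary, 2.12 to 3.08 in running mice), as did Kdr in mesothelial-like nuclei (-2.41 to -0.94 and -1.51 to -0.87), Kdr in endocardial-like nuclei of running mice (-1.61 to -0.90) and Vegfc in mesothelial-like nuclei of running mice (1.24 to 2.74). In sedentary mice mesothelial Vegfc ranged from 0.26 to 1.85. Not every alternative could move these endocardial and mesothelial ratios. The changed limits on UMIs alter which pairs count as measured and leave every ratio as it was. Holding the vascular mix and removing clusters of low depth leave the endocardial and mesothelial clusters untouched. The stability of these ratios therefore rests on the other alternatives. A class total with mitochondrial genes and median-of-ratios size factors changed none of the 32. The cause of the changes below was not tested.

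The direction turned in these cases. Flt1 in fibroblast-like nuclei gave -0.31 in sedentary and -0.44 in running mice with the members allowed in the clustering, and -0.21 in running mice at resolution 2. Kdr in fibroblast-like nuclei gave -0.046 and Flt1 in mesothelial-like nuclei -1.42 in running mice under the stricter barcode filter (800 genes, 5% mitochondrial UMIs). Vegfc in macrophage-like nuclei gave -0.56 for running infarct over running and -0.17 for running infarct over sedentary infarct at resolution 0.5, and -0.27 for the latter with each library clustered alone. Among Y-positive nuclei Flt1 gave -0.24 in cardiomyocyte-like nuclei for running infarct over sedentary infarct and 0.50 and -0.34 in mesothelial-like nuclei for infarct in sedentary and running mice. Angpt2 in lymphatic endothelial-like nuclei gave -0.084 there in running mice.

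Counts of called pairs moved by over 1.5 times as follows. For sedentary infarct over sedentary, the 4 higher became 7 at 20 UMIs and 1 at 500 UMIs, and the 5 lower became 10 with libraries clustered alone, 8 at 20 UMIs, 1 at 500 UMIs, 10 in Y-positive nuclei, 3 in Y-negative nuclei and 3 with the vascular mix held. For running infarct over running, the 9 higher became 5 with doublets kept and 4 at 500 UMIs, and the 6 lower became 10 at resolution 0.5 and 1 at 500 UMIs. For running over sedentary, the 1 higher became 2 at resolution 2, 4 with libraries clustered alone, 5 at 20 UMIs, 0 at 500 UMIs, 3 in Y-positive nuclei and 2 in the Y-negative ones. The 0 lower became 6 under the stricter barcode filter, 2 at resolution 0.5, 7 with libraries alone, 7 at 20 UMIs, 2 with every nucleus weighed alike and 3 in Y-positive nuclei. For running infarct over sedentary infarct, the 5 higher became 3 under the stricter barcode filter, 3 with members allowed, 10 at 20 UMIs, 2 at 500 UMIs and 3 in nuclei of at least 1000 UMIs. The 2 lower became 1 under the stricter barcode filter, 6 at 20 UMIs, 0 at 500 UMIs, 1 in Y-positive nuclei and 4 in the Y-negative ones.

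No paired analysis was possible because each group is 1 library. Sex, animal and library cannot be told apart, and few nuclei limit pericyte-like and smooth muscle-like classes to levels.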

Other observations

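The tip-cell and VEGF-responsive genes were also read outside the vascular endothelium. In fibroblast-like nuclei 5 of 12 measured were higher and 2 lower for infarct in sedentary mice (median log2 0.49), and 4 of 11 higher and 2 lower in running mice (0.35). In endocardial-like nuclei, where Angpt1 was several times higher with infarct, 1 of 8 was higher and 0 lower in sedentary mice (-0.02), and 2 of 8 higher and 1 lower in running mice (0.13). In lymphatic endothelial-like nuclei 2 of 4 were higher in sedentary mice (0.64), and in running mice 4 of 7 were higher and 1 lower (0.83). In cardiomyocyte-like nuclei 0 of 4 were higher in sedentary (0.31) and 3 of 4 in running mice (0.74). In mesothelial-like nuclei 2 of 3 were higher in each arm (0.88 and 1.17). Pericyte-like nuclei had 0 of 4 (0.03) and 2 of 4 higher (0.63), and macrophage-like nuclei 1 of 3 (0.46) and 2 of 5 (0.57). Over all these classes 4.81 to 9.81% of all measured genes were higher and 5.27 to 10.9% lower. Medians of all measured genes lay between -0.11 and 0.03.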
